A study of Mus musculus with 24 samples.

Results

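The Schlafen family was followed in the RNA of cultured mouse macrophages, with and without LPS, in cells labelled LysM-Cre or FosKO. The members were the rows of the table named Slfn1, Slfn2, Slfn3, Slfn4, Slfn5, Slfn8 and Slfn9. They were 7 of the 24273 genes of the table, each had 1 row, and all 7 were among the 13901 genes that passed the filter on low values. They were picked by name and not by a measured value, though with earlier results of these data known.

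Schlafen genes encode a family of mammalian proteins that share an N-terminal core and differ in what follows it. Short members hold little more than this core, intermediate members add a linker region, and long members carry a helicase-like region at the C-terminal end. Several members restrain proliferation of lymphoid and myeloid cells, and many are induced by type I interferon, which signals through the receptor chains IFNAR1 and IFNAR2 to a complex of STAT proteins and IRF9 that binds interferon-stimulated response elements (ISREs) in target promoters. In macrophages LPS acts on TLR4, which induces NF-κB targets directly and interferon target genes later, through newly made IFN-β.

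Bone marrow-derived macrophages (BMDMs) were grown from bone marrow of mice labelled LysM-Cre, the control, or FosKO, in which the Fos alleles were floxed (Fos fl/fl). Cells of both labels carried LysM-Cre, a Cre recombinase gene inserted at Lyz2 and active in myeloid cells, so no group was free of Cre. The series' design text names the controls LysM-Cre alone, whereas in the study's text they also have 1 floxed allele of Fos. The BMDMs were left unstimulated (0 h) or received LPS at 100 ng/ml for 0.5, 1 or 2 h, and each of the 8 groups had 3 libraries, 24 in all. The age of the mice is not given in the sources used here, and although the study's methods call the libraries biological replicates, neither they nor the labels say whether the 3 of a group came from separate mice, so p-values measure the spread between these libraries, which may be technical in part.

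The depth of the single libraries is unknown, since the values were deposited as normalised log2 values, on which a difference of 1 is a doubling. The 18S ribosomal RNA row Rn18s-rs5 split the libraries into 5 with values of 16.65 to 17.00 and 19 with values of 18.57 to 19.39. Of the 5, those taken at 0.5 h were replicate 3 of LysM-Cre and replicate 1 of FosKO, and those taken at 1 h were replicate 1 of FosKO and both replicates 2 and 3 of LysM-Cre. The Fos row was lower in FosKO at 0.5 h alone (mean 12.75 against 13.52 in LysM-Cre libraries). It was higher without LPS (12.60 against 11.11), after 1 h (12.78 against 11.15) and after 2 h (12.80 against 9.52). A gene-level value does not tell RNA of an intact allele from RNA of a deleted one, so every direction below is that of the libraries labelled FosKO. Lyz2, the locus of the Cre insertion, also differed, from 16.08 to 16.33 in FosKO and from 10.87 to 11.57 in LysM-Cre libraries. The macrophage genes Adgre1, Csf1r, Cd68 and Itgam lay between 14.16 and 15.38 in every library. Of the 8 macrophage markers, however, 5 were called higher in FosKO at 0 h (Lyz2, Cd68, Spi1, Mertk with means of 10.79 against 9.82, and Fcgr1 with 13.28 against 12.63), and Adgre1, Csf1r and Itgam were called lower. The summed linear level of the 7 macrophage markers other than Lyz2 ran from 133478 to 146857 in LysM-Cre and from 133768 to 155816 in FosKO libraries. The T cell receptor genes Cd3e, Cd3d and Cd3g and the neutrophil gene Ly6g lay at the floor of the scale, between -2.22 and -0.94. The 3 neutrophil markers that could be tested, S100a8, S100a9 and Ngp, were lower in FosKO at 0 h, and the summed level of the list was 47.1 to 78.1 in FosKO and 71.3 to 146 in LysM-Cre libraries. Of the testable T cell markers, Cd4 and Lck were higher in FosKO at 0 h, and of the monocyte markers Ly6c2 was higher and Ccr2 lower. The part of these differences in the results below was not tested.

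The 7 genes lie side by side on chromosome 11 (GRCm38, the mm10 build), over 264 kb from chr11:82951349 to chr11:83215154. The order is Slfn5 (chr11:82951349-82964840, plus strand), Slfn9 (chr11:82978390-82991830, minus), Slfn8 (chr11:83002158-83020810, minus), Slfn2 (chr11:83065112-83070678, plus), Slfn1 (chr11:83116849-83122670, plus), Slfn4 (chr11:83175186-83190216, plus) and Slfn3 (chr11:83191330-83215154, plus). The longest annotated coding sequences came to 337 codons for Slfn1 and 378 for Slfn2, the short members. They came to 602 for Slfn4 and 640 for Slfn3, the intermediate members, and to 884 for Slfn5 and 910 for Slfn8 and for Slfn9, the long members.

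Of the members, 2 pairs of neighbours were close to each other in sequence. The coding sequences of Slfn8 and Slfn9 were 92.7% identical over 2730 aligned bases, and those of Slfn3 and Slfn4 were 92.7% identical over 1785 aligned bases. Every other pair lay between 64.4% and 78.1%. Of all 50-base stretches of a member's transcripts, 15.6% in Slfn3, 14.6% in Slfn8, 11.5% in Slfn9 and 10.8% in Slfn4 occurred in a transcript of another gene too, against 4.27% or less in Slfn1, Slfn2 and Slfn5. Reads from such stretches can be split between copies, so the values of Slfn3, Slfn4, Slfn8 and Slfn9 are the less certain ones. Slfn5 shares 559 exon bases with its antisense partner Slfn5os. The libraries were strand-specific according to the study's methods.

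Since the 7 genes were higher together in the FosKO libraries (below), the sequence upstream of their RefSeq start sites was searched on both strands for 4 short motifs. These were the core of an ISRE, which is GAAA, NN and GAAA without a gap, TTCNNNGAA, the gamma-activated site, TGANTCA, the AP-1 site that FOS and JUN proteins bind, and TGACGTCA, the CRE. The windows ran from 250 bases before the start to 50 after it. An ISRE core occurred in Slfn5, Slfn8 and Slfn9, which are the 3 long members, an AP-1 site in Slfn4 alone, and the other 2 motifs in no member. Of 27025 genes with such a window, 3.99% held the ISRE core, 8.97% the AP-1 site, 9.55% the gamma-activated site and 2.03% the CRE. Of the 22 genes of the interferon-stimulated list used below that had a window, 12 held the ISRE core (54.5%), 6 the AP-1 site (27.3%), 6 the gamma-activated site (27.3%) and 0 the CRE. A match is a description of letters and not of a bound site, and a window with no match says nothing of other sequences. The stretches below, in RefSeq sequence of GRCm38.p6 and read 5′ to 3′ on the strand of the gene, show the matches in capitals, and that of Slfn2, with no match, is given because Slfn2 was the first member to rise after LPS. Each ends at the base before the first annotated exon base of the gene within its window. In Slfn5 the stretch lies inside the gene as annotated, because the first exon of a non-coding transcript is upstream of the window.
Slfn5 (chr11:82951852-82951984, plus): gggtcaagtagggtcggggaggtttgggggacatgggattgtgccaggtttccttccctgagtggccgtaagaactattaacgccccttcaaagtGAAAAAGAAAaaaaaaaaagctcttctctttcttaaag
Slfn9 (chr11:82991831-82992080, minus): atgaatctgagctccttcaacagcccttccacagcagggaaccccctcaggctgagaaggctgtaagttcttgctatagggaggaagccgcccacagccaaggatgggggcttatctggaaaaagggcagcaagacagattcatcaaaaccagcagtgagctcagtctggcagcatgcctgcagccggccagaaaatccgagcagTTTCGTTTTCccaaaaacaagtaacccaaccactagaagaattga
Slfn8 (chr11:83020811-83021060, minus): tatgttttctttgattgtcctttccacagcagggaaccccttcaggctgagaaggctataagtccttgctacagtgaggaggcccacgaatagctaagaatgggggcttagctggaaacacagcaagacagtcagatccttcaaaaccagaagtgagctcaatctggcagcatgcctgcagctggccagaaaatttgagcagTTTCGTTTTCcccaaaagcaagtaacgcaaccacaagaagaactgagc
Slfn4 (chr11:83174936-83175185, plus): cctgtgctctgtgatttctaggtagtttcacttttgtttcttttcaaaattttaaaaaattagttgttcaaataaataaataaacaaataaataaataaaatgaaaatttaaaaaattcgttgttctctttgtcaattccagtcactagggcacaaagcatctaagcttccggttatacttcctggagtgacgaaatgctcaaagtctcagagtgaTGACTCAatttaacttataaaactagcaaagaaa
Slfn2 (chr11:83064862-83065111, plus): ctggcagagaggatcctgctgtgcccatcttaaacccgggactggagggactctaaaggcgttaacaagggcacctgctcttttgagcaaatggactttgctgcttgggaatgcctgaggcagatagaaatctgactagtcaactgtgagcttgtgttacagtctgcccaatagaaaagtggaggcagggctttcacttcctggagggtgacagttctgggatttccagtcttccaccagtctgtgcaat
The first base of the match lay at -155 from the start site in Slfn5, at -45 in Slfn9, at -48 from the upstream start and at -136 from the downstream start of Slfn8, and at -34 in Slfn4. Slfn8 and Slfn9 held the same letters, TTTCGTTTTC, which is the ISRE core on the opposite strand. Their windows were 90.7% identical over 205 aligned bases, so these 2 matches are not independent of each other. In Slfn5 the match, GAAAAAGAAA, is the start of a run rich in A.

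Slfn2 was the most abundant member and Slfn4 the least. Between genes, levels were compared on a linear scale divided by exon length (2 raised to the deposited value, per kb). In LysM-Cre cells at 0 h this level was 6887 ± 134 for Slfn2, 2601 ± 97.0 for Slfn5, 920 ± 11.2 for Slfn8, 437 ± 12.4 for Slfn9, 141 ± 2.03 for Slfn3, 52.6 ± 4.54 for Slfn1 and 27.6 ± 2.36 for Slfn4 (mean ± SD, n = 3 libraries). No neighbours in this order overlapped. The same order held in FosKO cells at 0 h, from 10423 ± 972 for Slfn2 to 49.5 ± 11.4 for Slfn4, and in LysM-Cre cells at 2 h, from 21988 ± 499 to 35.6 ± 3.90, again with no overlap between neighbours. The short members Slfn2 and Slfn1 stood first and next to last in it, and the 3 long members followed Slfn2.

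Without LPS, every member was higher in the cells labelled FosKO. Slfn1, which was named for slowing the growth of thymocytes when overexpressed, had log2 values of 7.39, 7.91 and 8.10 in FosKO against 6.75, 6.53 and 6.55 in LysM-Cre libraries. Slfn2, needed for quiescence of T cells and monocytes, had 13.94, 14.08 and 14.21 against 13.51, 13.48 and 13.46. In both genes the lowest FosKO library lay above the highest LysM-Cre library. The difference was 1.19 for Slfn1 (SE 0.20, 2.28-fold, limma adjusted p = 0.000106) and 0.59 for Slfn2 (SE 0.06, 1.51-fold, adjusted p = 3.32e-07).

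The intermediate members showed the same direction. Slfn3 had 9.65, 9.97 and 10.10 in FosKO against 8.89, 8.91 and 8.93 in LysM-Cre libraries, a difference of 1.00 (SE 0.10, adjusted p = 1.93e-07). Slfn4, a member linked to the maturation of myeloid cells, had 7.19, 7.72 and 7.86 against 6.67, 6.74 and 6.91, a difference of 0.82 (SE 0.23, adjusted p = 0.00786). The groups were apart in both, with a wider spread in Slfn4, the member of lowest level per kb. Of the long members, Slfn5 had 14.49, 14.79 and 14.97 against 14.05, 14.02 and 13.94, and differed by 0.74 (SE 0.09, adjusted p = 3.48e-06). Slfn8 had 12.32, 12.57 and 12.87 against 11.90, 11.88 and 11.86 and differed by 0.70 (SE 0.11, adjusted p = 6.02e-05), and Slfn9 differed by 0.63 (SE 0.10, adjusted p = 7.36e-05). Among all genes tested, 19.5% were called higher in FosKO at 0 h, and in 24% every FosKO library was above every LysM-Cre library, beside 7 of 7 members on both counts. The median difference was 0.74 over the members and 0.0025 over all genes tested. In bulk RNA, more cells with a transcript and more transcript per cell cannot be told apart.

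The higher level in FosKO held through the first hour of LPS. At 0.5 h all 7 members were called higher (21.2% of all genes), by 0.54 for Slfn2 to 1.29 for Slfn1 and Slfn4. At 1 h all 7 were called again (18% of all genes), by 0.22 for Slfn2 (SE 0.06, adjusted p = 0.00976) to 0.97 for Slfn1 and Slfn3. At both times the groups did not overlap for any member, which held for 25.9% and 23.7% of all genes in this direction. Within the libraries of low and of high 18S RNA, compared apart, FosKO was higher for all 7 members at both times. This is a description only, since at 0.5 h the high set held 2 libraries of each label and the low set 1. For Slfn2 at 1 h the difference came to 0.29 in the high set (2 FosKO libraries and 1 LysM-Cre library). In the low set (1 and 2) it was 0.15, and for Slfn1 the 2 values were 1.35 and 0.63.

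At 2 h the difference was called for 6 of 7 members (24.4% of all genes were called higher), and the groups of the same 6 did not overlap (28.9% of all genes). It was largest in Slfn4, at 1.01 (SE 0.23, adjusted p = 0.00109), and was 0.80 in Slfn3, 0.66 in Slfn5, 0.54 in Slfn9, 0.45 in Slfn8 and 0.24 in Slfn2 (adjusted p = 0.00379). Slfn1 had 8.05, 8.01 and 8.42 in FosKO and 7.65, 7.69 and 8.02 in LysM-Cre libraries, so that 1 LysM-Cre library lay just above the lowest FosKO library. Its difference of 0.37 (95% interval -0.05 to 0.80) did not pass (adjusted p = 0.151), but did when only the 2 groups compared entered the fit (adjusted p = 0.0349). The differences of Slfn2 at 1 h and 2 h were 0.10 and 0.07 after quantile normalisation and were then not called (adjusted p = 0.191 and 0.358), and that of Slfn8 at 2 h was then 0.29.

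**Figure D1:**
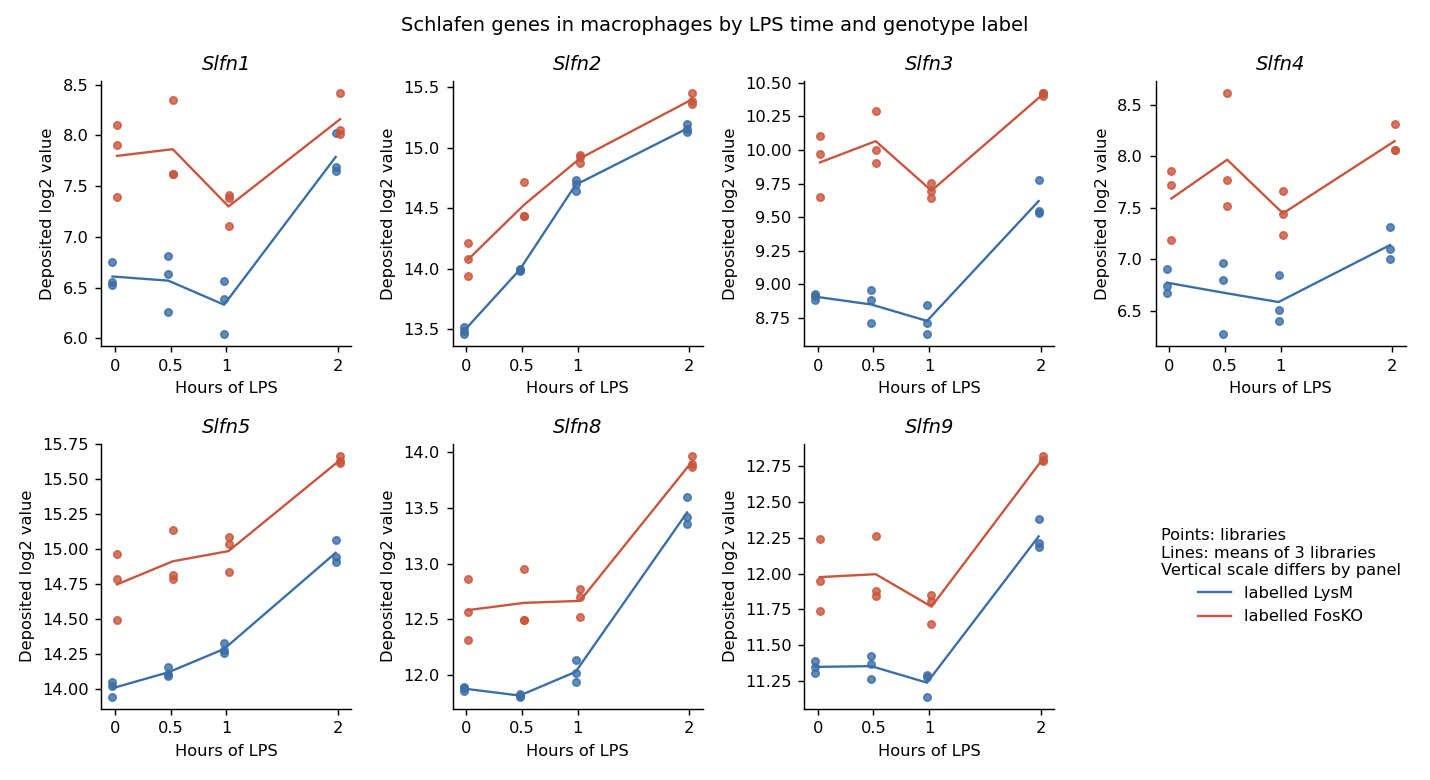
Deposited log2 values (vertical axis, a different range in each panel) of the 7 Schlafen genes against hours of LPS (horizontal axis), for libraries labelled LysM-Cre (blue) and FosKO (red), with points for libraries and lines through the means of 3 libraries. The red points lie above the blue ones in every panel and at every time other than Slfn1 at 2 h, where they overlap.

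**Figure D2:**
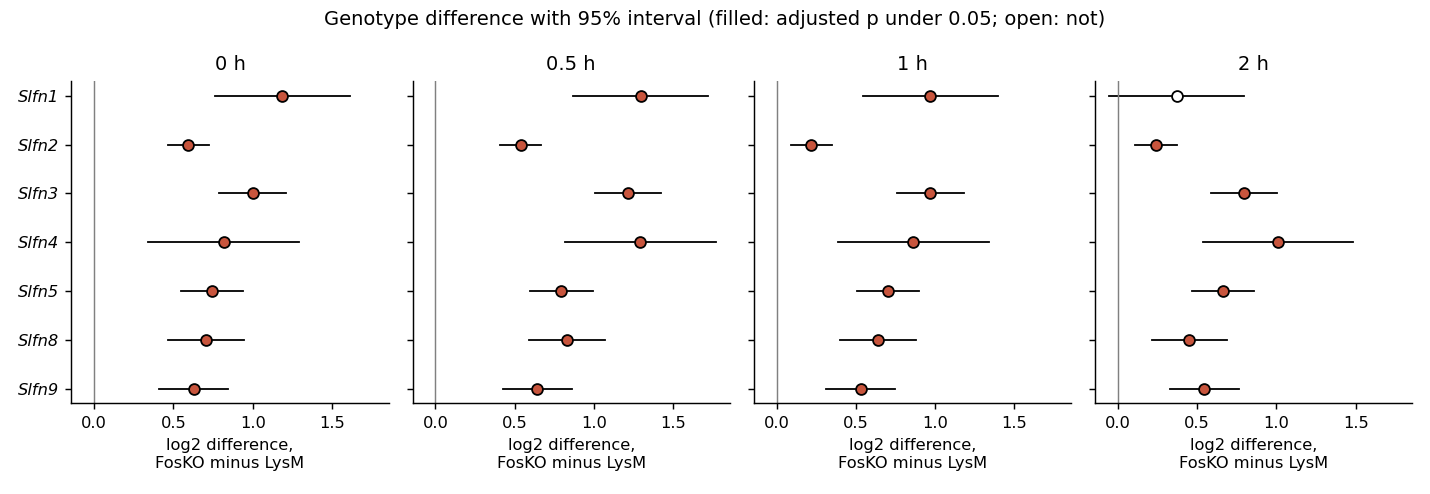
The log2 difference between FosKO and LysM-Cre libraries (horizontal axis) for each Schlafen gene at 0, 0.5, 1 and 2 h of LPS, with its 95% interval from limma, filled where the adjusted p was under 0.05. All differences lie to the right of 0, those of Slfn2 are the smallest in each panel, and Slfn1 at 2 h is the one open point.

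Which members responded to LPS, and when, was asked within each label. Slfn2 rose first. The unstimulated LysM-Cre libraries had 13.51, 13.48 and 13.46. After 0.5 h of LPS the values were 13.992, 13.9817 and 13.9995, after 1 h they were 14.64, 14.74 and 14.70, and after 2 h they were 15.13, 15.15 and 15.19. Each time point stood clear of the one before it. The rise from 0 h was 0.51 at 0.5 h (SE 0.06, adjusted p = 7.42e-06), 1.21 at 1 h (adjusted p = 1.68e-12) and 1.67 at 2 h (3.19-fold, adjusted p = 2.50e-15). It was the only member called at 0.5 h, when 5.09% of all genes were called higher.

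The other members rose later. At 1 h in LysM-Cre cells (19.2% of all genes called higher) Slfn5 was called besides Slfn2, with a rise of 0.28 (SE 0.09, adjusted p = 0.0249). That call was lost without LysM-Cre 0 h replicate 3 (adjusted p = 0.0865), LysM-Cre 1 h replicate 2 (0.0536) or LysM-Cre 1 h replicate 3 (0.0773), and after quantile normalisation the value was -0.0055. At 2 h, 6 of 7 members were called (30.6% of all genes called higher). Slfn8 rose by 1.58 (SE 0.11, 2.99-fold, adjusted p = 1.51e-10), from 11.90, 11.88 and 11.86 to 13.36, 13.42 and 13.60, and Slfn1 rose by 1.18 (SE 0.20, adjusted p = 3.91e-05), from 6.75, 6.53 and 6.55 to 7.65, 7.69 and 8.02. Neither gene had a library at 0 h within reach of those at 2 h. Slfn5 rose by 0.97 (0.44 after quantile normalisation), Slfn9 by 0.91 and Slfn3 by 0.71. Slfn4 had 7.00, 7.10 and 7.31 at 2 h against 6.67, 6.74 and 6.91 at 0 h, a change of 0.37 (SE 0.23) that did not pass (adjusted p = 0.176) although the groups did not overlap. Groups that did not overlap in this direction were found for 7 of 7 members and for 33.9% of all genes.

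In FosKO cells Slfn2 was again the first member to be called. The unstimulated FosKO libraries had Slfn2 values of 13.94, 14.08 and 14.21. These were 14.43, 14.43 and 14.72 after 0.5 h of LPS, 14.87, 14.92 and 14.94 after 1 h and 15.38, 15.36 and 15.45 after 2 h. It rose by 0.45 at 0.5 h (adjusted p = 4.27e-05, and 0.0977 when only the groups compared were fitted), 0.83 at 1 h and 1.32 at 2 h (0.53 and 0.83 after quantile normalisation), and was the only member called at 0.5 h (4.45% of all genes called higher) and at 1 h (17.6%). At 2 h, 6 of 7 members were called (32.6% of all genes). Slfn8 rose by 1.33, Slfn5 by 0.89 (0.41 after quantile normalisation), Slfn9 by 0.83 (0.49) and Slfn3 by 0.51. Slfn4 rose by 0.56 (SE 0.23, adjusted p = 0.0394), a call that was lost without FosKO 0 h replicate 1 (0.36, adjusted p = 0.216) and without FosKO 2 h replicate 1, 2 or 3 (adjusted p = 0.056, 0.0561 and 0.126). Slfn1 had 7.39, 7.91 and 8.10 at 0 h and 8.05, 8.01 and 8.42 at 2 h. These overlap, and its change of 0.36 (95% interval -0.06 to 0.79) did not pass (adjusted p = 0.133).

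The change of Slfn1 at 1 h was -0.28 in LysM-Cre and -0.50 in FosKO cells, and neither passed (adjusted p = 0.319 and 0.0690). With the replicate number as a block in the limma fit, the FosKO change passed (adjusted p = 0.0145, and 0.0116 with a block within each label). Without FosKO 0 h replicate 1, the lowest library of its group, the FosKO values were -0.70 for Slfn1 (adjusted p = 0.0147), -0.34 for Slfn3 (0.00975) and -0.32 for Slfn9 (0.0212), and those 3 were then called lower at 1 h (15% of all genes were called lower with every library in the fit). Without FosKO 0 h replicate 3 or FosKO 1 h replicate 1, Slfn5 was called higher at 1 h, by 0.35 (adjusted p = 0.00601) and 0.31 (0.0231).

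**Figure D3:**
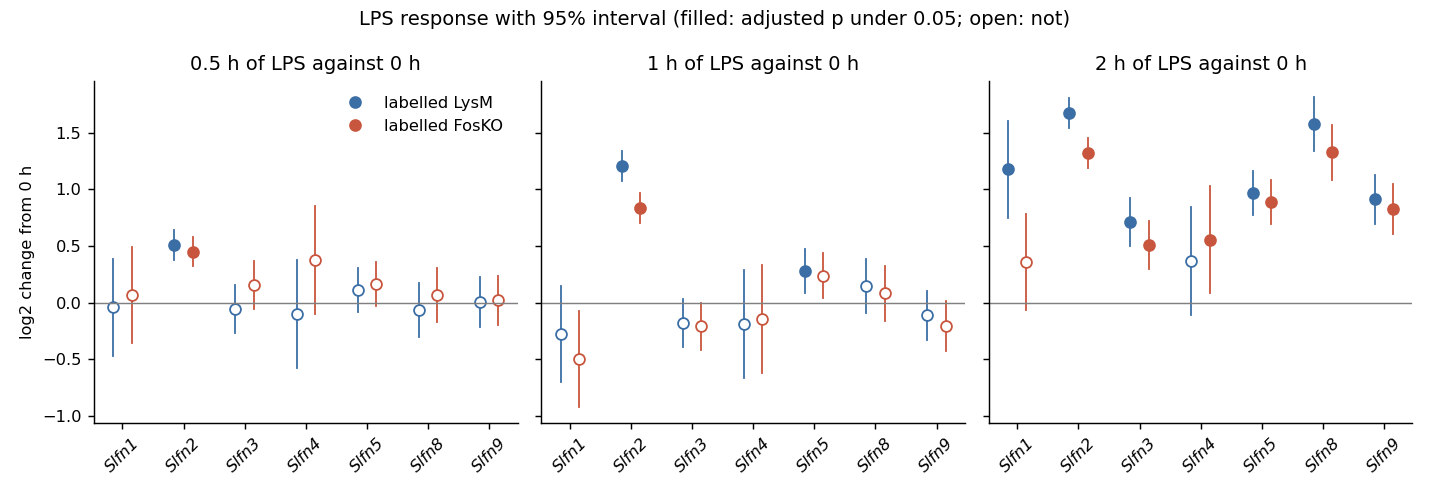
The log2 change from 0 h (vertical axis) of each Schlafen gene after 0.5, 1 and 2 h of LPS in LysM-Cre (blue) and FosKO (red) libraries, with 95% intervals from limma, filled where the adjusted p was under 0.05. Slfn2 is the one gene filled in both labels at 0.5 h and 1 h, while at 2 h Slfn4 in LysM-Cre and Slfn1 in FosKO are the 2 open points.

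The rise of most members fell between 1 h and 2 h. Over this step all 7 were called higher in LysM-Cre cells (27.5% of all genes) and all 7 in FosKO cells (27.2%). In LysM-Cre cells the step was 1.46 in Slfn1, 1.43 in Slfn8, 1.02 in Slfn9, 0.89 in Slfn3, 0.69 in Slfn5, 0.55 in Slfn4 and 0.47 in Slfn2. In FosKO cells it was 1.24 in Slfn8, 1.03 in Slfn9, 0.86 in Slfn1, 0.72 in Slfn3, 0.70 in Slfn4, 0.65 in Slfn5 and 0.49 in Slfn2. Slfn2 thus made the smallest step in both labels. After quantile normalisation the steps of Slfn5 in LysM-Cre and of Slfn2 in FosKO cells were 0.45 and 0.30. The Slfn4 step in LysM-Cre cells was close to the limit (adjusted p = 0.0476) and was lost without LysM-Cre 1 h replicate 1 or 2 (adjusted p = 0.113 and 0.152) or LysM-Cre 2 h replicate 1, 2 or 3 (0.0555, 0.0799 and 0.148). In FosKO cells it had an adjusted p of 0.0138, and was lost without FosKO 1 h replicate 1 (0.0625) or FosKO 2 h replicate 3 (0.0579).

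Whether the LPS response itself differed between the labels was tested as the difference of the 2 changes, which share the 0 h libraries with the comparisons above. At 0.5 h limma called 0 of 7 members, and 0 of 7 had an unadjusted p under 0.05 (0.115% of all genes were called). At 1 h Slfn2 rose less in FosKO on the log2 scale, by -0.38 (SE 0.09, 95% interval -0.56 to -0.19, adjusted p = 0.0389), where 0.727% of all genes were called in this direction. This call was lost in 10 of the 12 fits that left out 1 library, with adjusted p-values of 0.0571 to 0.120 in those, while the value lay between -0.44 and -0.31 over all 12. At 2 h Slfn2 again rose less on the log2 scale, by -0.36 (SE 0.09, 95% interval -0.54 to -0.17, adjusted p = 0.00887), where 7.7% of all genes were called in this direction. Its mean linear level went from 11460.4 at 0 h to 36587.4 at 2 h in LysM-Cre and from 17344.5 to 43181.4 in FosKO libraries. The smaller rise is thus one of ratio, from a higher 0 h level. The largest difference in response at 2 h was that of Slfn1, -0.82 (SE 0.29, 95% interval -1.42 to -0.21), which did not pass (adjusted p = 0.0630). It passed without FosKO 0 h replicate 1 (-1.02, adjusted p = 0.0182) and without FosKO 2 h replicate 3 (-0.94, adjusted p = 0.0414). For the other 5 members the 95% intervals at 2 h included 0, from -0.59 to 0.09 in Slfn8 to -0.48 to 0.86 in Slfn4.

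In some groups 1 library was the highest or the lowest for all members. In the FosKO group at 0 h replicate 3 was the highest for 7 of 7 members and replicate 1 the lowest for 7 of 7, and at 0.5 h replicate 3 was the highest for all 7, as was LysM-Cre replicate 3 at 2 h. FosKO replicate 1 was the lowest for all 7 at 1 h too. Other groups were mixed, such as LysM-Cre at 0 h, where replicate 1 was the highest for 5 members and the lowest for 2. The SD pooled over the 4 times was larger in FosKO than in LysM-Cre libraries for each gene, for instance 0.11 against 0.03 in Slfn2, 0.17 against 0.06 in Slfn5 and 0.20 against 0.08 in Slfn8. The other interferon-stimulated genes were examined in the same libraries. FosKO replicate 3 at 0 h held the highest value for 29 of the 30 genes of the interferon-stimulated list, and its median deviation from the group mean was 0.22 for that list and 0.26 for the members. FosKO replicate 1 at 0 h held the lowest value for 30 of 30, with median deviations of -0.25 and -0.26. The members' median deviation had the sign of the list's in 23 of 24 libraries, and that of all genes tested in 22 of 24. The median deviation of a library over all genes tested lay between -0.0046 and 0.0065.

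**Figure D4:**
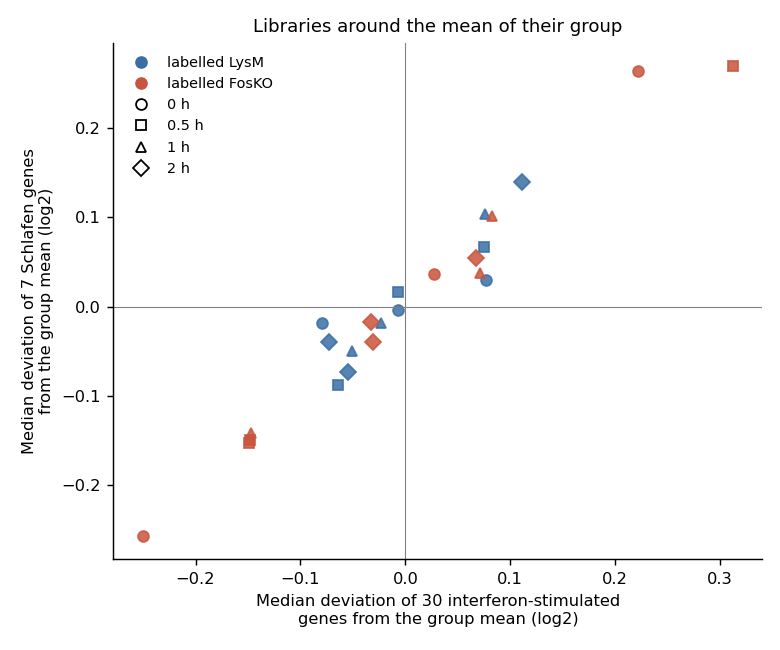
For each of the 24 libraries, the median deviation from the mean of its group over the 30 interferon-stimulated genes (horizontal axis, log2) and over the 7 Schlafen genes (vertical axis, log2), coloured by label and shaped by hours of LPS. The points run from FosKO replicate 1 at 0 h at the lower left (-0.25 and -0.26) to FosKO replicates 3 at 0 h and 0.5 h at the upper right.

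The members' differences at 0 h, from 0.59 in Slfn2 (SE 0.06) to 1.19 in Slfn1 (SE 0.20), were set beside those of the genes around them. The highest value there was 0.56 in Mmp28 (SE 0.14), close to that of Slfn2. No test compared the members with these genes. Of the nearest tested protein-coding genes on either side of the cluster, Lig3, Rffl, Rad51d, Nle1 and Ap2b1 had differences of -0.10 to 0.11 and were not called, while Mmp28 (0.56, adjusted p = 0.00344) and Taf15 (0.17, adjusted p = 0.00220), the farthest on one side, were called higher. Between Slfn5 and Slfn14 the table held 7 further tested rows that are no members. The pseudogene Slfn10-ps, which lies between Slfn8 and Slfn2, differed by 0.16 (SE 0.06, adjusted p = 0.0464) and the pseudogene Gm11427 by 0.21 (adjusted p = 0.00392), and the other 5, Slfn5os among them at -0.72 (SE 0.47), were not called. After 2 h of LPS Slfn10-ps changed by -0.41 in LysM-Cre and -0.39 in FosKO cells (adjusted p = 7.45e-06 and 1.35e-05), where both its neighbours among the members rose. Slfn5os rose at 2 h, by 1.46 in LysM-Cre and 2.79 in FosKO cells (adjusted p = 0.0112 and 2.99e-05). Slfn14, the last Schlafen gene of the cluster, lay between -1.64 and -1.52 in every library and was not tested.

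**Figure D5:**
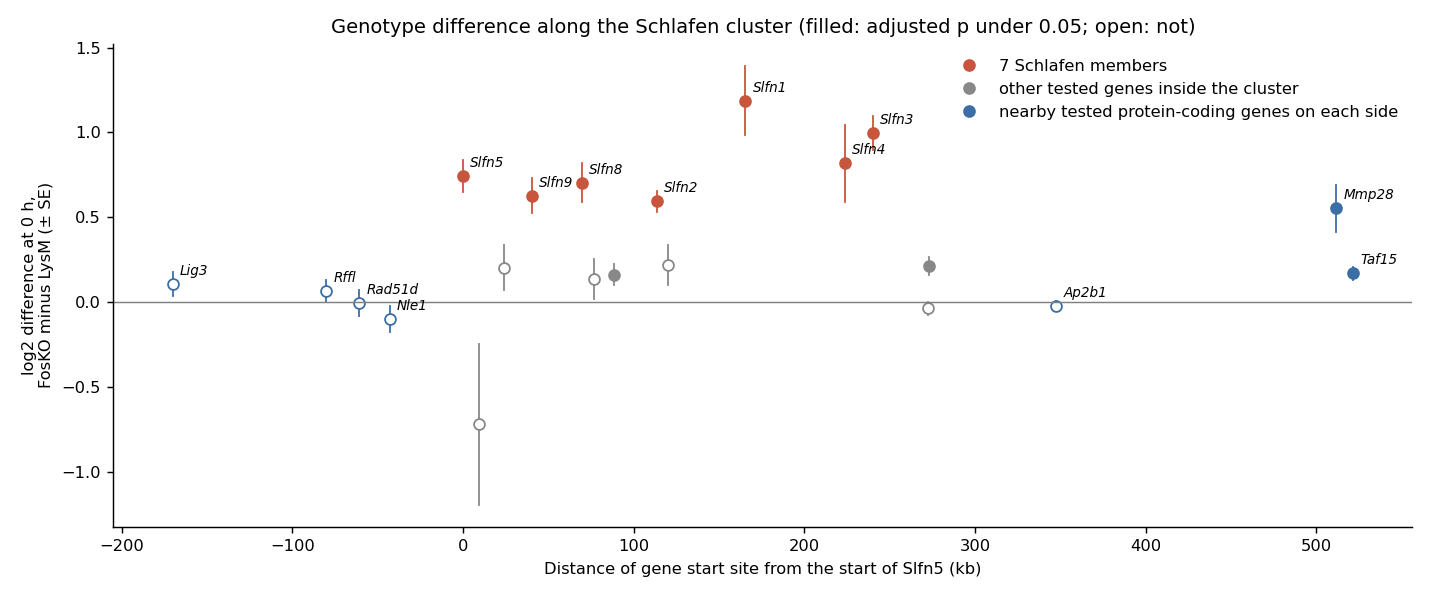
The log2 difference at 0 h between FosKO and LysM-Cre libraries (vertical axis, bars ± SE) against the distance of each gene's start site from the start of Slfn5 in kb (horizontal axis), for the 7 Schlafen genes (red), the other tested rows of the cluster (grey) and nearby tested protein-coding genes on each side (blue), filled where the adjusted p was under 0.05. The red points lie between 0.59 and 1.19, and no other point exceeds that of Mmp28 at 0.56.

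Genes of the interferon pathway were set beside the members, in lists that were chosen with earlier results of these data known and are no independent evidence of a direction. All 30 genes of the interferon-stimulated list were called higher in FosKO at each time (19.5%, 21.2%, 18% and 24.4% of all genes). Their median differences were 0.96, 1.14, 0.98 and 0.90 in the order of the times, and without LPS they ran from 0.49 in Samhd1 to 1.92 in Rsad2. The members' medians at the same times were 0.74, 0.83, 0.70 and 0.54. After LPS in LysM-Cre cells 0 of the 30 were called by limma at 0.5 h (1 had an unadjusted p under 0.05), 4 were called higher and 1 lower at 1 h, and 27 were called higher at 2 h, with a median change of 0.68 and the largest in Mx2, at 3.27. Among all genes 5.09% were called higher at 0.5 h, 19.2% at 1 h (35.8% in either direction) and 30.6% at 2 h. The median change of the members at 2 h was 0.97.

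Of the signalling genes, Ifnb1, which encodes IFN-β, did not differ detectably between labels at 0 h (0.10, adjusted p = 0.609), where it had means of 6.17 in FosKO and 6.08 in LysM-Cre libraries. After 0.5, 1 and 2 h of LPS it was higher in FosKO, by 1.69, 3.18 and 3.00. Whether IFN-β had a part in the members' difference at 0 h was not tested. Stat2 was higher in FosKO at every time, by 0.57 to 1.21, and Irf9 by 0.23 to 0.28. The receptor genes Ifnar1 and Ifnar2 were not called at 0 h (0.01 and -0.04) and were lower in FosKO at 2 h (-0.40 and -0.21). In all, 7 of the 11 signalling genes were called higher at 0 h and 0 lower. Among all genes 19.5% were called higher then, and 35.4% in either direction. At 2 h 8 were called higher and 2 lower. Among all genes 24.4% were called higher at 2 h, and 44.6% in either direction.

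Members differed in which genes they followed over the 24 libraries, where Pearson's r is given as a description, since libraries share 8 groups. Slfn8 and Slfn9 ran together (r = 0.97), as did Slfn1 and Slfn3 (0.95) and Slfn3 and Slfn4 (0.94), whereas Slfn2 had its weakest relations to Slfn4 (0.48), Slfn1 (0.56) and Slfn3 (0.57). The genes outside the family most like Slfn2 were Ccl7, a monocyte chemokine, Clec4e, the receptor Mincle, and Bcl2a1d, an inhibitor of apoptosis (r of 0.990 to 0.993). Those most like Slfn5 were Cd274, which encodes PD-L1, Parp9 and Nampt (0.992 to 0.996), and most like Slfn8 were Samd9l, Nos2 and Itgal (0.992 to 0.995). Slfn9 was most like Max, Irgm2 and Trim30c, Slfn1 like Tgtp2, Tnfsf10 and Rnf114, Slfn3 like Coa5, Serpina3g and Ifit3, and Slfn4 like Snw1, Gbp9 and Pydc4, with r from 0.958 to 0.990.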

How the data were processed

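RNA from BMDMs was sequenced as single-end, strand-specific TruSeq libraries. The authors mapped and counted reads with STAR 2.5.2a and RSEM 1.2.31, and the submitters' processing notes list DESeq2 1.16.1. The deposited table held normalised log2 values resembling a regularised log, a transform that pulls genes with few reads towards their mean. Differences of Slfn1 and Slfn4, and of Ifnb1 at 0 h, may therefore be understated. The transform itself is not given in the sources used here, and no reads could be recovered.

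A gene was tested if 3 or more libraries had a linear level (2 raised to the deposited value) of 5 or more. All 24 libraries entered 1 limma fit (limma 3.58.1, R 4.3.3) of 8 group means with a variance trend and 16 residual degrees of freedom. P-values were adjusted by the Benjamini-Hochberg method over 13901 genes in each of 15 comparisons, and genes were called at an adjusted p under 0.05. The fit was tested on simulated data. Coordinates and transcripts were taken from GENCODE (GRCm38), which held 99.7% of the table's identifiers, and all 7 members had an upstream window in RefSeq. Coding sequences were aligned globally (biopython 1.88).

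The members and gene lists were chosen with earlier results of these data known. The members were all named, the genes most like each were the 3 tested protein-coding genes of highest Pearson's r, and neighbours were the 4 nearest tested protein-coding genes on each side. A few genes of these sets are not reported here. Alternatives covered the filter, a pseudocount of 1, quantile and TMM (trimmed mean of M values) scaling, the groups fitted, the variance trend, the replicate number, the 18S set and each library left out.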

Additional observations from a re-analysis of the deposited data

Results flagged for a closer look

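The LPS response of Slfn2 differed between the labels by a test of the difference itself, at 1 h (-0.38 on the log2 scale, FosKO minus LysM-Cre) and at 2 h (-0.36). Its rise at 1 h was 1.21 in LysM-Cre against 0.83 in FosKO libraries, and that at 2 h was 1.67 against 1.32, from a 0 h level that was higher in FosKO by 0.59. The same 0 h libraries enter both differences. The call at 1 h was lost in 10 of the 12 fits that left out 1 library, with no filter, with no variance trend, with only the groups compared and with only the libraries of high 18S RNA.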

How the results depend on the processing

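Of the 60 member differences called, 55 stayed called whichever library was left out, those between the labels among them, and the 5 others are named with their values above. Leaving out 1 library gave 1 to 2 members called for LPS 1 h in LysM-Cre cells, 1 to 4 for LPS 1 h in FosKO cells, 0 to 1 for the difference in response at 1 h and 1 to 2 for that at 2 h. With only the groups compared in the fit, these counts were 4 for LPS 1 h in LysM-Cre cells, 0 for LPS 0.5 h in FosKO cells, 0 for the difference at 1 h and 2 for the difference at 2 h. With only the libraries of high 18S RNA they were 1 for LPS 1 h in LysM-Cre cells, 2 in FosKO cells and 0 for the difference at 1 h. With the 18S set as a term, LPS 1 h in FosKO cells gave 2. The difference at 1 h gave 0 with no filter on low values and 0 with no variance trend. Slfn4, of lowest level per kb, was not called at 2 h in FosKO cells with no filter (adjusted p = 0.0634) or TMM scaling (0.0526). Over the LysM-Cre step it was not called with no filter (0.0779), TMM scaling (0.0503) or no variance trend (0.0591). The same held with the 18S set as a term (0.113) or the libraries of high 18S RNA alone (0.143). Over the FosKO step it was not called with the libraries of high 18S RNA alone (0.0748). With only the groups compared it was called at 2 h in LysM-Cre cells (0.00707). The causes were not tested. Quantile normalisation reversed Slfn5 (-0.0055) and Slfn8 (-0.010) at 1 h in LysM-Cre cells and Slfn5 (-0.073) at 1 h in FosKO cells, and gave 3 members called at 1 h in FosKO cells, of which Slfn3 (-0.27) and Slfn9 (-0.35) were lower, and Slfn9 was called lower at 1 h in LysM-Cre cells too (-0.23, adjusted p = 0.0475). It moved the share of higher genes among all calls for the labels at the 4 times from 55.1%, 51.9%, 53.1% and 54.6% to 45.3%, 45.6%, 42.8% and 43.0%. After 0.5, 1 and 2 h of LPS the LysM-Cre share was 48.3%, 37.6% and 40.0% in place of 70.3%, 53.8% and 50.3%, the FosKO share 50.5%, 35.3% and 39.2% in place of 75.2%, 54.0% and 52.5%, and that for the FosKO step 42.1% in place of 53.6%. TMM scaling moved that of the difference at 2 h from 48.5% to 37.6%. The replicate numbers were not taken as pairs. Across the labels, libraries deviated together (r over 0.1) in 6 of 48 pairs of the same number and in 18 of 96 pairs of different number. Within a label, libraries of different groups did so in 12 of 36 pairs of the same number and in 4 of 72 pairs of different number. In FosKO the members' median deviation from the group mean was negative for replicate 1 and positive for replicate 3 at all 4 times. A replicate block gave 3 members called for LPS 1 h in FosKO cells and 2 for the difference at 2 h, and a block within each label gave 4 and 2. Under both, Slfn1 passed for the difference at 2 h (adjusted p = 0.0120 and 0.00936) and for LPS 2 h in FosKO cells (0.0429 and 0.0358). For LPS 1 h in FosKO cells both called Slfn1 lower (-0.50, 0.0145 and 0.0116) and Slfn5 higher (0.24, 0.0309 and 0.0105). The block within each label called Slfn9 lower there too (-0.21, 0.0389). For 34 differences called in no fit no direction is claimed, since 52 of their 686 refits changed sign. The unknown depth of the single libraries leaves the precision of Slfn1 and Slfn4, the members of lowest level, to the spread between libraries.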
